A study of Homo sapiens with 18 samples.

Results

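The mitochondrial genome encodes 6 subunits of respiratory complexes III, IV and V: cytochrome b (MT-CYB), the cytochrome c oxidase subunits MT-CO1, MT-CO2 and MT-CO3, and the ATP synthase subunits MT-ATP6 and MT-ATP8. They were taken by symbol from a table of 17017 genes, where all 6 were present, and all 6 passed the filter on low counts in RNA and in footprints. Levels were measured in MDA-MB-231, an established triple-negative breast carcinoma line, in 3 treatments named SC, SH2 and SH3. All cells had been transduced with lentiviral pLKO.1 particles and selected with puromycin. SC is taken to be the scramble control, and SH2 and SH3 to be the hairpins against the mRNA of fibrillarin (FBL), the nucleolar enzyme that 2'-O-methylates ribosomal RNA. The protocols name the hairpins knockdown 1 and 2 without tying those names to SH2 or SH3. Each treatment had 3 libraries of input cytoplasmic RNA (IN) and 3 of ribosome-protected footprints (RPF), so 18 libraries in all. Nothing in the labels says that the replicates were separate cultures, so p-values measure only the spread between these samples, which may be technical.

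Mitochondrial mRNAs are cut from long polycistronic transcripts of both strands of the circular genome, with tRNAs between most of them marking the cuts. They are translated inside the organelle by mitochondrial ribosomes, whose RNA is encoded there as well, and the proteins are inserted into the inner membrane and joined by nuclear-encoded subunits. Complex III passes electrons from ubiquinol to cytochrome c, complex IV passes them on to oxygen, and complex V uses the resulting proton gradient to make ATP. Cycloheximide, given here before lysis, acts on cytosolic and not on mitochondrial ribosomes. Footprints were recovered from a monosome fraction of a sucrose gradient, and how much of the more slowly sedimenting mitochondrial ribosome that fraction held is not given in the sources used here.

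IN libraries held 23469830 to 27629488 counts and RPF libraries 1662705 to 6098648. The targeted FBL RNA had a mean of 388 ± 36.4 CPM in SC, where CPM is the count scaled to library size with TMM factors, beside means of 5.67 ± 5.09 CPM for SH2 and 3.49 ± 0.612 CPM for SH3 (SD, n = 3 each). VIM, CD44 and EGFR, which this line expresses, had SC RNA levels of 5579, 316 and 197 CPM. Of the receptors whose absence defines the triple-negative class, ESR1 and PGR had 0 to 2 counts in every library, while ERBB2 mRNA was present at 95.3 CPM in SC. SC replicate 1 stood apart for the mitochondrial transcripts: the 13 mitochondrially encoded mRNAs took 10.7% of its RNA counts, against 6.38% and 6.31% in SC replicates 2 and 3. In SC footprints they took 0.660%, 0.415% and 0.166%. Each called change is therefore also given without SC replicate 1 where the call, the direction or the size, by more than 1.5 times, was not kept.

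The 6 mRNAs made up a smaller part of the RNA of both hairpin treatments. In SC they took 6.68%, 4.17% and 4.19% of the counts of replicates 1, 2 and 3, with a mean of 5.01% ± 1.45 (SD, n = 3). In SH2 they took 2.00%, 2.31% and 1.73%, or 2.01% ± 0.291 (SD, n = 3). In SH3 the shares were 3.49%, 2.56% and 3.12%, or 3.06% ± 0.465 (SD, n = 3). Every hairpin library was below every SC library, and every SH2 library was below every SH3 library. A bulk library cannot tell fewer mitochondrial transcripts per cell from a different mix of cells, and a smaller share cannot be told apart from more RNA of other genes. The input was cytoplasmic RNA, so a different recovery of mitochondrial RNA at lysis cannot be told apart either, and it was not tested.

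Footprints of the 6 mRNAs were a much smaller part of the footprint libraries, and they were spread widely in SC. The SC shares were 0.472%, 0.282% and 0.111%, or 0.288% ± 0.180 (SD, n = 3). SH2 libraries held 0.0926%, 0.0970% and 0.106%, or 0.0986% ± 0.00702 (SD, n = 3). SH3 libraries held 0.267%, 0.257% and 0.169%, or 0.231% ± 0.0539 (SD, n = 3). All SH2 libraries lay below all SC and all SH3 libraries, while SH3 lay within the range of SC.

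**Figure D1:**
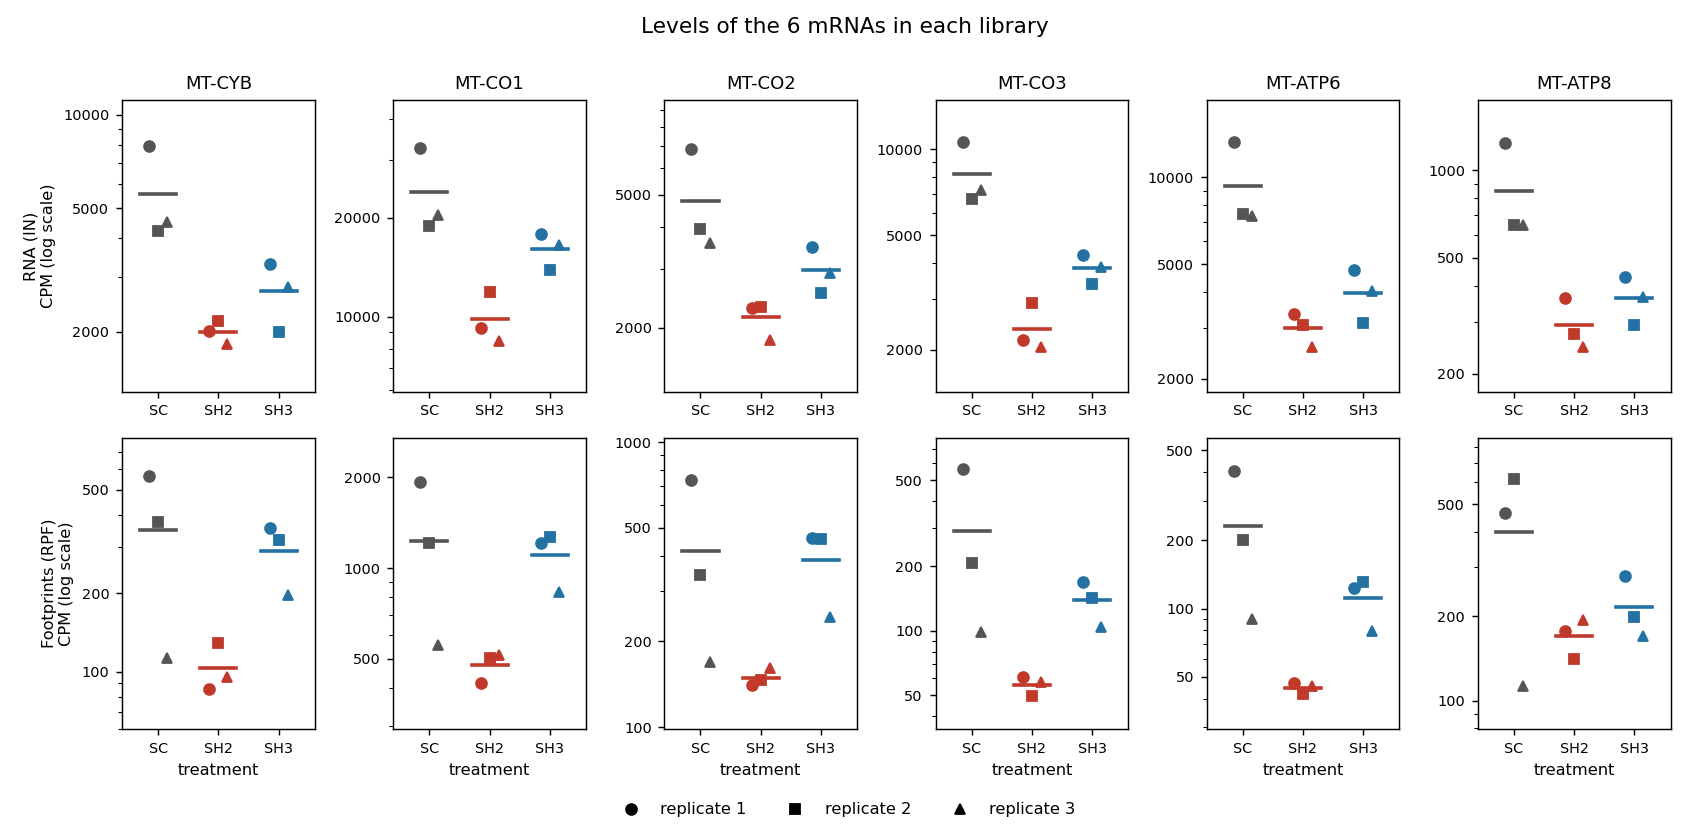
Level of each of the 6 mRNAs in CPM on a log axis in the 9 RNA libraries (upper row) and the 9 footprint libraries (lower row), with treatment on the x axis, 1 point per library, shapes for replicate numbers and a line at the group mean. In RNA every SH2 and SH3 point lies below every SC point; in footprints the SC points are spread widely and the SH3 points overlap their range.

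RNA of all 6 genes fell in both hairpin treatments, to 29.0% to 44.7% of the SC mean in SH2 and to 42.7% to 67.3% in SH3. All 6 were called lower in each (edgeR quasi-likelihood test, adjusted p under 0.05), where 30.4% of the 12710 genes tested were called lower in SH2 and 25.2% in SH3. The median log2 change of the 6 was -1.50 in SH2 and -1.06 in SH3, beside 0.01 and 0.03 over all genes tested. These 2 comparisons share the SC libraries. The direction was the same under all 14 alternatives computed for each gene and comparison. With the replicate number as a block, all 6 stayed called in SH2, with smaller changes, from -1.76 (MT-CO3) to -1.11 (MT-CO2).

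MT-CYB encodes cytochrome b, the only mitochondrially encoded subunit of complex III, which holds both of its b-type haems. In SC its RNA stood at 7940, 4207 and 4515 CPM in replicates 1, 2 and 3. In SH2 it stood at 2015, 2163 and 1833 CPM, and in SH3 at 3309, 2003 and 2790 CPM. SC replicate 1 was the highest library by far, neither hairpin overlapped with SC, and SH2 and SH3 overlapped with each other. The SH2 change was -1.47 on the log2 scale (SE 0.22, edgeR adjusted p 5.68e-05), against -1.04 for SH3 (SE 0.22, edgeR adjusted p 0.00117).

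MT-CO1 encodes the catalytic subunit of complex IV, where oxygen is reduced. Its RNA levels in SC were 32532, 18939 and 20331 CPM. SH2 libraries had 9218, 11926 and 8452 CPM, and SH3 libraries 17842, 13900 and 16589 CPM. The 3 groups did not overlap, with SC highest and SH2 lowest, but SH3 replicate 1 came close to the lowest SC library. Its RNA fell by 1.28 on the log2 scale with SH2 (SE 0.19, edgeR adjusted p 5.62e-05) and by only 0.57 with SH3 (SE 0.19, edgeR adjusted p 0.0198), the smallest SH3 change of the 6. The SH3 call was lost without SC replicate 1 (log2 change -0.30, edgeR adjusted p 0.098) and without SH3 replicate 2 (-0.51, edgeR adjusted p 0.0666).

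MT-CO2 encodes the subunit that receives electrons from cytochrome c. SC levels were 6859, 3965 and 3590 CPM, SH2 levels 2291, 2316 and 1838 CPM, and SH3 levels 3487, 2539 and 2920 CPM. The groups did not overlap, although SH3 replicate 1 and SC replicate 3 were nearly level. MT-CO2 had the smallest SH2 change, -1.16 (SE 0.20, edgeR adjusted p 0.000228), and its SH3 change was -0.69 (SE 0.20, edgeR adjusted p 0.0108). Without SC replicate 1 the SH3 change was -0.36, still called (edgeR adjusted p 0.0435).

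MT-CO3 encodes the third of the mitochondrially made core subunits of complex IV, which carries no metal centre. Its RNA stood at 10577, 6725 and 7177 CPM in SC, at 2160, 2909 and 2034 CPM in SH2, and at 4258, 3397 and 3889 CPM in SH3. The 3 groups were well separated, SH2 being lowest in every library. MT-CO3 had the largest SH2 change of the 6, -1.79 (SE 0.18, edgeR adjusted p 1.52e-06), beside an SH3 change of -1.08 (SE 0.17, edgeR adjusted p 0.000156).

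MT-ATP6 encodes the membrane subunit a of ATP synthase, next to the rotating ring through which protons pass. SC levels were 13235, 7453 and 7323 CPM, SH2 levels 3361, 3070 and 2578 CPM, and SH3 levels 4788, 3115 and 4049 CPM. SC replicate 1 was again the highest, and both hairpins lay below all SC libraries while overlapping each other. With SH2 the log2 change was -1.64 (SE 0.21, edgeR adjusted p 1.76e-05), and with SH3 it was -1.23 (SE 0.21, edgeR adjusted p 0.000273), the largest SH3 change of the 6.

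MT-ATP8 encodes a short membrane subunit of ATP synthase, and its reading frame overlaps the start of that of MT-ATP6 on a shared mRNA. Its RNA stood at 1243, 647 and 647 CPM in SC, at 364, 273 and 247 CPM in SH2, and at 429, 293 and 368 CPM in SH3. Both hairpins lay below SC and overlapped each other. It changed by -1.52 with SH2 (SE 0.23, edgeR adjusted p 6.97e-05) and, less far, by -1.22 with SH3 (SE 0.23, edgeR adjusted p 0.000562). How reads in the shared stretch were assigned, and how reads matching nuclear copies of mitochondrial DNA were treated, is not given in the sources used here, so the values of both genes, and of the group at large, carry that uncertainty.

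Between the hairpins, RNA was lower in SH2 than in SH3 for all 6 genes, but only MT-CO1 and MT-CO3 were called. Their log2 differences, SH2 minus SH3, were -0.71 for MT-CO1 (SE 0.19, edgeR adjusted p 0.00889) and -0.70 for MT-CO3 (SE 0.17, edgeR adjusted p 0.00557). In that comparison 20.4% of all genes tested were called lower in SH2. The other 4 differed by -0.30 (MT-ATP8) to -0.47 (MT-CO2), with edgeR adjusted p from 0.0775 to 0.315. Without SH2 replicate 3 the MT-CO1 difference was -0.60 and missed the threshold (edgeR adjusted p 0.0609). Over all settings, calls over all genes in either direction ran from 3152 to 5780, so the counts among the 6 are to be read beside that range. Fitted on the SH2 and SH3 libraries alone, 5 of the 6 were called, which adds MT-CYB, MT-CO2 and MT-ATP6. With the replicate number as a block 5 were called as well, which adds MT-CO2, MT-ATP6 and MT-ATP8. That block also raised the calls over all genes, in either direction, from 4993 to 5780 of 12710. By their deviations from the group means, same-numbered SH2 and SH3 RNA libraries correlated at 0.43, 0.04 and 0.23 for replicates 1, 2 and 3.

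**Figure D2:**
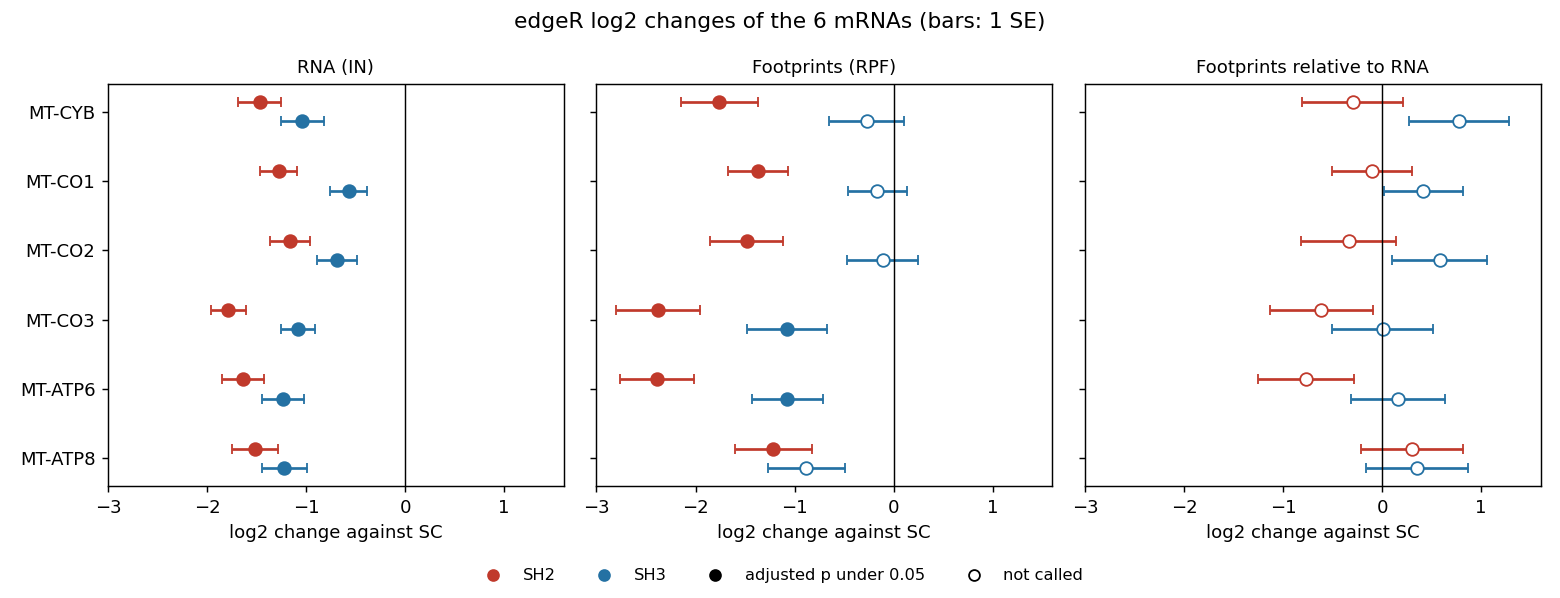
log2 change of each of the 6 mRNAs against SC (x axis) for SH2 and SH3 in RNA, in footprints and in footprints relative to RNA, as points with bars of 1 SE; filled points have an edgeR adjusted p under 0.05. In RNA all points are filled and lie between -1.79 and -0.57; in footprints all SH2 points and 2 of the 6 SH3 points are filled; in footprints relative to RNA none is.

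Footprints of all 6 genes fell in SH2, to 19.2% to 42.9% of the SC mean, and all 6 were called lower, where 23.2% of the 10345 genes tested were. In SH3 the means stood at 47.8% to 93.0% of SC, and only MT-CO3 and MT-ATP6 were called, where 19.0% of genes were called lower. The median log2 change of the 6 was -1.62 in SH2 and -0.58 in SH3, beside -0.0042 and -0.01 over all genes tested. Both comparisons rest on SC footprint libraries that differed among themselves by several times for these genes. With the replicate number as a block, all 6 stayed called in SH2. Their changes were then smaller, from -2.18 (MT-ATP6) to -1.01 (MT-ATP8, edgeR adjusted p 0.0291).

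MT-CYB footprints stood at 565, 375 and 113 CPM in SC replicates 1, 2 and 3. In SH2 they stood at 85.5, 129 and 95.2 CPM, and in SH3 at 358, 320 and 196 CPM. SC replicate 3 lay below every SH3 library and within the range of SH2, so SC overlapped with both hairpins. The SH2 change was -1.76 (SE 0.39, edgeR adjusted p 0.00184), whereas that of SH3 was -0.27 (SE 0.38, edgeR adjusted p 0.607). The sign in SH3 turned without SC replicate 1, to 0.29 (edgeR adjusted p 0.526), and without SC replicate 3 the change was -0.69 and was called (edgeR adjusted p 0.0452).

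For MT-CO1 the SC footprint libraries had 1932, 1216 and 557 CPM. SH2 libraries had 417, 502 and 514 CPM, and SH3 libraries 1213, 1264 and 833 CPM. SH2 lay below all other libraries, and SH3 lay inside the SC range. SH2 footprints changed by -1.37 (SE 0.30, edgeR adjusted p 0.00166), or by -0.88 without SC replicate 1 (edgeR adjusted p 0.00487). The SH3 change was -0.16 (SE 0.29, edgeR adjusted p 0.698). It turned to 0.33 without SC replicate 1 (edgeR adjusted p 0.282) and to 0.01 without SH3 replicate 3 (edgeR adjusted p 0.98).

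MT-CO2 gave the same order, with 739, 341 and 169 CPM in SC, 140, 146 and 161 CPM in SH2, and 461, 458 and 243 CPM in SH3. SH2 replicate 3 lay just below SC replicate 3, and SH3 again fell inside the SC range. The change in SH2 was -1.48 (SE 0.37, edgeR adjusted p 0.00396), or -0.75 without SC replicate 1 (edgeR adjusted p 0.0218). In SH3 it was -0.11 (SE 0.36, edgeR adjusted p 0.836), the smallest of the 6. That sign turned to 0.63 without SC replicate 1 (edgeR adjusted p 0.0622) and to 0.15 without SH3 replicate 3 (edgeR adjusted p 0.807).

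MT-CO3 footprints were at 563, 206 and 99.1 CPM in SC. They were at 61.1, 49.7 and 57.6 CPM in SH2 and at 169, 142 and 104 CPM in SH3. SH2 did not overlap with either other group, and SH3 overlapped with SC through SC replicate 3. The log2 change was -2.38 in SH2 (SE 0.43, edgeR adjusted p 0.000358), or -1.42 without SC replicate 1 (edgeR adjusted p 0.000139). The SH3 change, -1.08 (SE 0.40, edgeR adjusted p 0.0475), was just past the threshold. It was -0.12 without SC replicate 1 (edgeR adjusted p 0.745) and missed the threshold without any 1 of the SH3 replicates 1, 2 and 3 (edgeR adjusted p 0.0639, 0.115 and 0.165) and in DESeq2 (adjusted p 0.16).

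MT-ATP6 had 406, 201 and 89.8 footprint CPM in SC, 46.7, 41.7 and 45.3 CPM in SH2, and 124, 130.5 and 79.6 CPM in SH3. SH2 lay below both other groups, with close replicates, and SH3 replicate 3 was the only SH3 library below all of SC. MT-ATP6 had the largest SH2 footprint change of the 6, -2.39 (SE 0.38, edgeR adjusted p 0.000121), or -1.68 without SC replicate 1 (edgeR adjusted p 5.03e-05). In SH3 it changed by -1.07 (SE 0.36, edgeR adjusted p 0.0277). That call was lost without SC replicate 1 (-0.35, edgeR adjusted p 0.286), without SH3 replicate 1, 2 or 3 (edgeR adjusted p 0.0537, 0.0516 and 0.123) and in DESeq2 (adjusted p 0.104).

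For MT-ATP8 the SC libraries were ordered differently. SC footprints were at 465, 616 and 113 CPM, SH2 at 177, 141 and 194 CPM, and SH3 at 279, 199.6 and 169.7 CPM. Here SC replicate 2, not replicate 1, was the highest library, and SC replicate 3 lay below every library of both hairpins. SH2 footprints changed by -1.21 (SE 0.39, edgeR adjusted p 0.0183), and the SH3 value was -0.88 (SE 0.39, edgeR adjusted p 0.0857). The SH2 call was lost in DESeq2 (adjusted p 0.0782) and without SC replicate 2 (-0.76, edgeR adjusted p 0.0834), SH2 replicate 1 (edgeR adjusted p 0.0527) or SH2 replicate 2 (edgeR adjusted p 0.0722). The SH3 change was -1.31 and was called without SC replicate 3 (edgeR adjusted p 0.00041).

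Between the hairpins, footprints of 5 of the 6 genes were called lower in SH2 than in SH3, where 11.6% of genes tested were. The log2 differences of these 5, SH2 minus SH3, ran from -1.49 (MT-CYB, SE 0.39, edgeR adjusted p 0.0116) to -1.21 (MT-CO1, SE 0.30, edgeR adjusted p 0.0084), and none of the 5 overlapped between SH2 and SH3. MT-ATP8 differed by -0.34 (SE 0.39, edgeR adjusted p 0.567), and its groups overlapped. Overlap between groups was not counted over all genes, so it is given as a description only. MT-CO1 was called without each single library. The calls of the other 4 were lost without SH2 replicate 1, with log2 differences of -1.37, -1.33, -1.36 and -1.35 for MT-CYB, MT-CO2, MT-CO3 and MT-ATP6 and edgeR adjusted p from 0.051 to 0.0776. Leaving out SH2 replicate 2 left 3 of the 6 called, SH2 replicate 3 left 2, SH3 replicate 1 left 3 and SH3 replicate 2 left 2. Calls over all genes, in either direction, also moved, from 1301 to 3019 over all settings, against 2459 in the full fit. The median difference of the 6 was -1.31 in footprints and -0.45 in RNA, and the test of footprints relative to RNA, which bears on that contrast, called none of them.

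The amount of footprint per RNA was low for 5 of the 6 genes. The ratio of footprint CPM to RNA CPM, formed between libraries of the same replicate number, carries no gene length. Comparing it between genes also requires that reads were assigned alike in both kinds of library. For the stretch shared by MT-ATP8 and MT-ATP6 the assignment is not given, so the standing of these 2 genes carries that uncertainty. Nothing in the labels says that an RNA and a footprint library of 1 number came from the same lysate. Over all genes, the deviations of same-numbered RNA and footprint libraries from their group means correlated at -0.49, -0.46 and 0.26 in SC replicates 1, 2 and 3, while RNA replicate 1 and footprint replicate 2 correlated at 0.57 and RNA replicate 2 and footprint replicate 1 at 0.46. SH2 showed the same crossing of numbers 1 and 2, and in SH3 same-numbered libraries correlated at 0.42, 0.29 and 0.21. Single ratios and their SDs therefore depend on the matching, whereas a mean log2 ratio does not. In SC there were 2.33 ± 0.974 footprint CPM per 100 RNA CPM for MT-ATP6, 3.26 ± 1.98 for MT-CO3, 5.03 ± 2.00 for MT-CO1, 6.17 ± 3.31 for MT-CYB and 8.03 ± 3.07 for MT-CO2 (SD, n = 3 each). Neighbours in this order lay within each other's spread. MT-ATP8 stood apart, with 37.4, 95.2 and 17.5 footprint CPM per 100 RNA CPM in SC replicates 1, 2 and 3. Genes were ranked by mean log2 ratio in SC among the 10335 that passed the filter on low counts in RNA and in footprints. Genes with RNA but too few footprints for that filter were left out, so the low end of the ranking is cut. A library without footprints of a gene was left out of that gene's mean. Among the genes ranked, MT-ATP6 was the lowest, and MT-ATP8 lay at percentile 15.0. MT-CO3, MT-CO1, MT-CYB and MT-CO2 lay at percentiles 0.0484, 0.0774, 0.0871 and 0.339. The low ratio was shared with the complex I mRNAs. MT-ND1, MT-ND4L, MT-ND4 and MT-ND2 lay between MT-ATP6 and MT-CO3, MT-ND5 stood at percentile 0.310, and MT-ND6 and MT-ND3 stood higher, at 4.48 and 5.37.

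In SH2 the ratios were 1.50 ± 0.222 for MT-ATP6, 2.46 ± 0.649 for MT-CO3, 4.94 ± 1.00 for MT-CO1, 5.13 ± 0.854 for MT-CYB, 7.07 ± 1.48 for MT-CO2 and 59.6 ± 16.4 for MT-ATP8 (SD, n = 3 each). In SH3 they were 2.91 ± 1.15, 3.61 ± 0.808, 6.97 ± 2.04, 11.3 ± 4.51, 13.2 ± 4.86 and 59.8 ± 11.9 in the same order of genes. The order of the 6 group means was thus the same in SC, SH2 and SH3. It was also the same for the mean log2 ratios, which do not rest on the matching and were -5.53, -6.07 and -5.17 for MT-ATP6 in SC, SH2 and SH3, against -1.34, -0.78 and -0.76 for MT-ATP8.

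**Figure D3:**
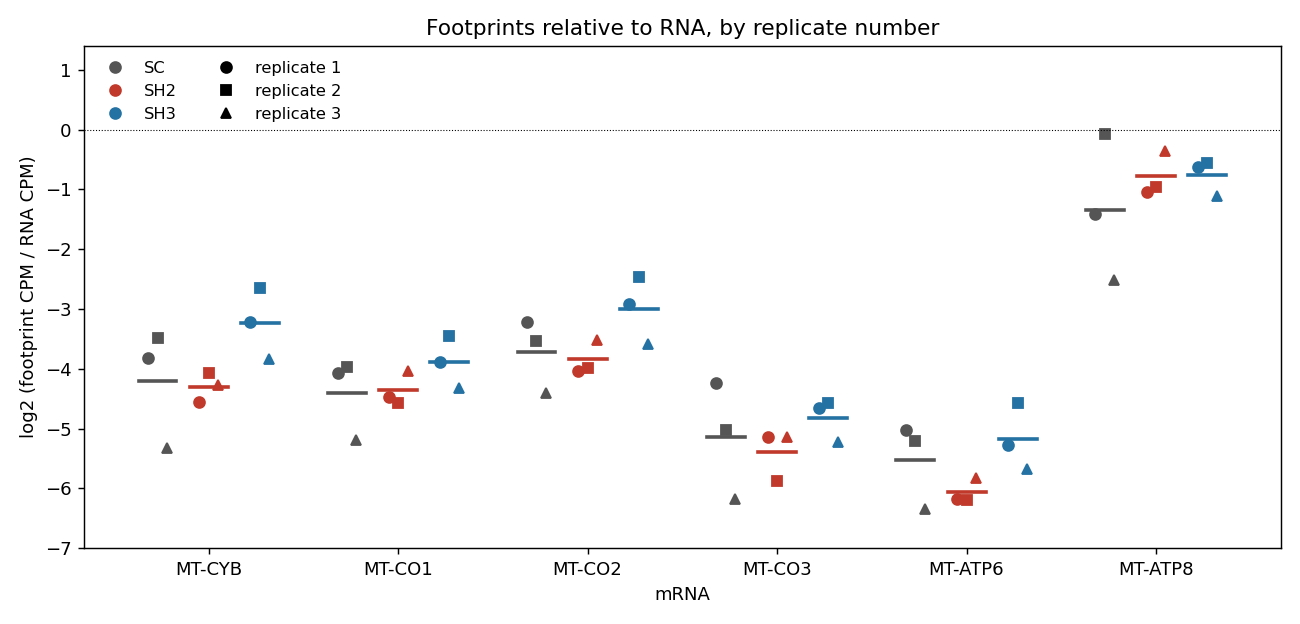
log2 ratio of footprint CPM to RNA CPM (y axis) for each of the 6 mRNAs, formed between libraries of the same replicate number, coloured by treatment, with shapes for replicate numbers and a line at the group mean. MT-ATP8 lies well above the other 5 in every treatment, SC replicate 3 is the lowest SC point for each gene, and the SC and SH2 points overlap.

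The change of footprints relative to RNA, the usual measure of translational efficiency, was not called for any of the 6 genes in any comparison (edgeR interaction contrast over all 18 libraries). Over all genes, 3.9% were called in SH2 against SC, 0.686% in SH3 against SC and 0.016% between SH2 and SH3. At an unadjusted p under 0.05 the counts among the 6 were 0, 0 and 1, the last being MT-CYB between SH2 and SH3 (log2 difference -1.08, SE 0.51, unadjusted edgeR p 0.0482, adjusted p 0.421). DESeq2 also called 0 in each comparison. With the replicate number as a block, 755 in place of 489 of all genes were called in SH2 against SC, and again none of the 6. In SH2 against SC the log2 values ran from -0.77 (MT-ATP6) to 0.30 (MT-ATP8), with edgeR adjusted p from 0.436 to 0.935. In SH3 against SC they ran from 0.0065 (MT-CO3) to 0.78 (MT-CYB), with edgeR adjusted p from 0.572 to 0.9999. Between the hairpins, SH2 minus SH3, all 6 were negative, from -1.08 (MT-CYB) to -0.05 (MT-ATP8), with edgeR adjusted p from 0.421 to 0.991. Their median there was -0.77, beside 0.01 over all genes tested and -0.81 for the 7 complex I mRNAs.

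These intervals were wide. An interval of 2 SE on each side reached from -1.74 to 0.20 for MT-ATP6 in SH2 and from -0.23 to 1.79 for MT-CYB in SH3, so both reached past a 2-fold change. The SEs of the 6 ran from 0.40 (MT-CO1) to 0.53 (MT-CO3) over the 3 comparisons. Without SC replicate 1 the SH2 values of MT-CO1, MT-CO2 and MT-CO3 turned from -0.10, -0.34 and -0.61 to 0.13, 0.07 and 0.15. With the replicate number as a block the MT-CO1 value in SH2 was 0.01. The SH3 value of MT-CO3 was -0.32 without SC replicate 3, -0.07 without SC replicate 2 and 0.76 without SC replicate 1, and that of MT-ATP6 turned from 0.16 to -0.08 without SC replicate 3 and to -0.14 without SH3 replicate 2.

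Relative to one another, the 6 mRNAs did not change by equal amounts. Their joint share of the counts of all 13 mitochondrially encoded mRNAs was 64.8% ± 1.89 in SC RNA, 67.4% ± 3.31 with SH2 and 70.0% ± 1.23 with SH3 (SD, n = 3 each). In footprints it was 68.7% ± 2.45, 73.2% ± 3.43 and 73.5% ± 1.53 in the same order. These shares are free of the scaling between libraries, and they are given as descriptions, without a test. The shares of the 13 add up to the whole, so a larger share of 1 mRNA lowers those of others. In RNA the mean share of MT-CO1 alone was 29.6% in SC, 33.7% in SH2 and 37.7% in SH3.

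MT-CO1 and MT-CO2 had a larger mean share of the 13 mRNAs in both hairpin treatments than in SC, and MT-ATP6 a smaller one. MT-CO1 held 28.2%, 29.5% and 31.0% of the 13 in SC RNA, 30.3%, 36.9% and 34.1% in SH2, and 35.9%, 38.9% and 38.4% in SH3. SH3 lay above all of SC, and SH2 replicate 1 lay inside the SC range. MT-CO2 held 5.94%, 6.18% and 5.47% in SC, 7.52%, 7.16% and 7.42% in SH2, and 7.01%, 7.10% and 6.76% in SH3, so both hairpins were above SC in every library. MT-ATP6 held 11.5%, 11.6% and 11.2% in SC, 11.0%, 9.49% and 10.4% in SH2, and 9.63%, 8.71% and 9.37% in SH3, below SC in every library. By log2 change in RNA, MT-ATP6 differed from the median of the 13 by only -0.12 in SH2 and -0.06 in SH3. For MT-CO1 these values were 0.24 and 0.60.

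The 3 subunits of complex IV thus differed. While the shares of MT-CO1 and MT-CO2 were higher on average in both hairpins, MT-CO3 held 10.2% ± 0.918 of the 13 in SC, 8.10% ± 0.957 with SH2 and 9.02% ± 0.469 with SH3 (SD, n = 3 each), with SH2 below all SC libraries and SH3 overlapping them. MT-CYB kept a similar share, with 6.77% ± 0.188 in SC, 6.90% ± 0.432 in SH2 and 6.24% ± 0.560 in SH3, and its groups overlapped. The share of MT-ATP8 was 1.02% ± 0.0475 in SC, 1.01% ± 0.175 in SH2 and 0.845% ± 0.0223 in SH3, with SH3 below all of SC.

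In footprints the mean shares of MT-CO1 and MT-CO2 were again higher in both hairpin treatments than in SC, and those of MT-CO3 and MT-ATP6 lower. MT-CO1 took 30.0% ± 2.36 of the footprints on the 13 in SC, 34.8% ± 0.413 in SH2 and 36.3% ± 2.08 in SH3, and MT-ATP6 took 5.36% ± 0.797, 3.28% ± 0.519 and 3.63% ± 0.237 (SD, n = 3 each). Neither hairpin overlapped with SC for either gene. MT-CO2 footprint shares of 9.69% ± 1.75, 10.9% ± 0.699 and 12.5% ± 1.48 overlapped. MT-CO3 shares of 6.39% ± 2.00, 4.15% ± 0.832 and 4.54% ± 0.252 did not overlap between SH3 and SC, and MT-CYB footprint shares of 7.95% ± 1.17, 7.51% ± 1.37 and 9.44% ± 0.646 lay above SC in every SH3 library. Shares of MT-ATP8 footprints were 9.29% ± 4.22, 12.6% ± 2.44 and 7.11% ± 0.996, and SH2 lay above SH3 in every library while both overlapped with SC.

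**Figure D4:**
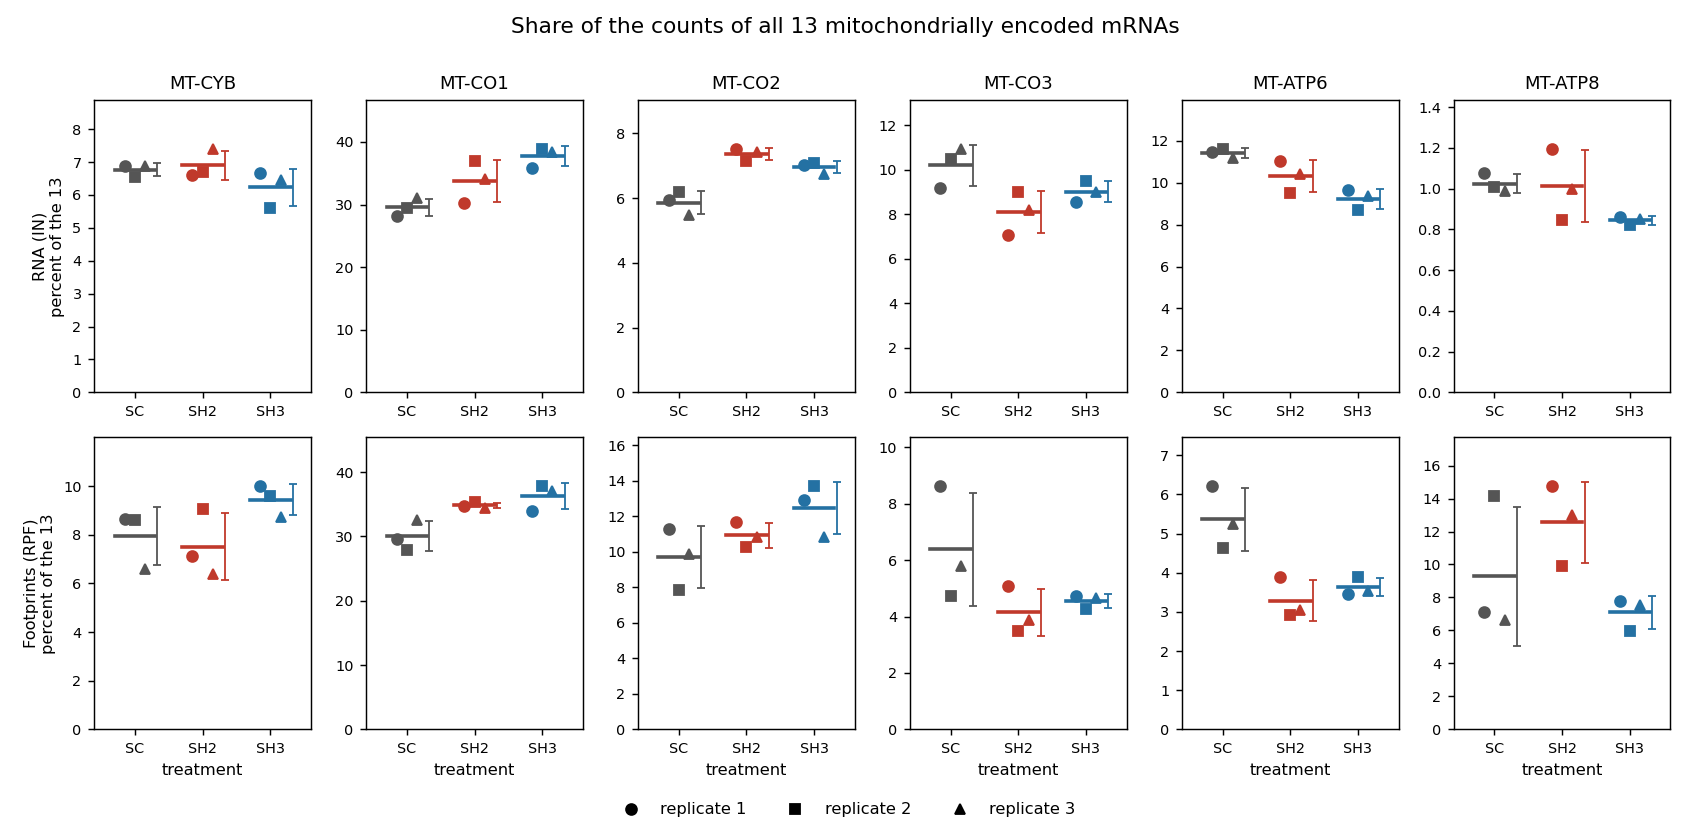
Share of the counts of all 13 mitochondrially encoded mRNAs taken by each of the 6 (y axis, percent, from 0) in RNA (upper row) and footprints (lower row), with treatment on the x axis, 1 point per library, shapes for replicate numbers, a line at the group mean and bars of 1 SD. MT-CO2 lies above SC in RNA in every SH2 and SH3 library, and MT-ATP6 lies below SC in every SH2 and SH3 library in RNA and in footprints.

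MT-ATP8 and MT-ATP6 share 1 mRNA, and the ratio of their counts can be followed between libraries without a length. In RNA there were 0.0939, 0.0868 and 0.0884 MT-ATP8 counts per MT-ATP6 count in SC, 0.108, 0.0891 and 0.0959 in SH2, and 0.0896, 0.0941 and 0.0908 in SH3, so the groups overlapped. In footprints the ratio was 1.15, 3.06 and 1.26 in SC replicates 1, 2 and 3. It was 3.80, 3.39 and 4.28 in SH2 and 2.26, 1.53 and 2.13 in SH3. SH2 lay above every other footprint library, with SC replicate 2 nearest, and SH3 lay inside the SC range. The footprint ratio rests on 126 to 179 MT-ATP6 counts in each SH2 library, and it was looked at after the values of the 2 genes had been seen.

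The other 7 mitochondrially encoded mRNAs, all of which encode complex I subunits, also fell in RNA. All 7 were called lower in RNA in both hairpins, with median log2 changes of -1.57 in SH2 and -1.20 in SH3. By the mean of both hairpins, MT-ND2 changed most (-2.05 and -1.46) and MT-ND5 least (-1.35 and -0.99). In footprints 7 of 7 were called lower in SH2 and 2 of 7 in SH3, with medians of -1.80 and -0.64, beside 6 of 6 and 2 of 6 for the complex III to V subunits. Footprints relative to RNA were called for none of the 7 in either hairpin, as for the 6. No test of a difference between the 6 and the 7 was made.

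Nuclear-encoded partners of the 6 had smaller median changes in RNA. Over all genes, 31.1% were called higher and 30.4% lower in SH2 RNA, and 27.8% and 25.2% in SH3 RNA. In footprints these shares were 21% and 23.2% for SH2, and 16.9% and 19.0% for SH3. The counts of the gene lists that follow are to be read against these shares, and no list was tested. A gene named as lowest or highest of a list is so by the mean of both hairpins' log2 changes. Of the 9 nuclear complex III subunits, 0 were called higher and 5 lower in SH2 RNA, and 1 and 6 in SH3, with medians of -0.32 and -0.30. UQCR10, a small subunit, was lowest with -1.38 and -0.40, and UQCRC1, a core subunit, was highest with 0.05 in SH2 (not called, edgeR adjusted p 0.621) and 0.28 in SH3 (edgeR adjusted p 0.0127). Of 11 nuclear complex IV subunits, 3 were higher and 6 lower in SH2, and 2 and 6 in SH3, with medians of -0.28 and -0.27. COX6C was lowest with -0.55 and -0.60 (both called), and COX7C was highest with 0.48 and 0.96 (both called).

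Of 17 nuclear complex V subunits, 1 was called higher and 12 lower in SH2 RNA, and 1 and 11 in SH3, with medians of -0.36 and -0.31. ATP5F1B, the catalytic beta subunit, was the gene called higher, with 0.70 and 0.61, while ATP5MK, a small membrane subunit, was lowest with -1.48 and -0.67. In footprints the counts higher and lower were 0 and 4 of 8 for complex III, 2 and 3 of 11 for complex IV and 1 and 9 of 17 for complex V in SH2. In SH3 they were 0 and 5, 2 and 6, and 1 and 7. UQCR11 did not pass the footprint filter. The lowest in footprints were UQCR10 (-1.30 and -0.79), COX6C (-0.35 and -0.94) and ATP5PD (-1.37 and -0.47), and the highest were COX7C (0.64 and 0.63) and ATP5F1B (0.52 and 0.39), all of them called in both hairpins, and UQCRH (0.47 and -0.12), called in neither.

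Of 28 factors that assemble complexes III to V, 6 were called higher and 7 lower in SH2 RNA, beside 31.1% and 30.4% of all genes. In SH3 the counts were 7 and 7, beside 27.8% and 25.2% of all genes. SURF1, a complex IV assembly factor, was highest (0.72 and 0.56) and FMC1, a complex V assembly factor, lowest (-1.36 and -0.73) by the mean of both hairpins, all called. TMEM70, another complex V assembly factor, was named after its values were seen, since it had the largest SH2 change of the list, -2.04 (edgeR adjusted p 1.39e-08), beside 0.02 in SH3 (edgeR adjusted p 0.875). In footprints 1 was higher and 10 lower in SH2, and 0 and 6 in SH3. COX17, which carries copper towards complex IV, was lowest with -0.95 and -2.67 (both called), and COX15, needed for the haem of complex IV, was highest with 0.59 and -0.09 (neither called).

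Of 18 genes for making and processing mitochondrial RNA, 7 were called higher and 5 lower in SH2 RNA, beside 31.1% and 30.4% of all genes, and 8 and 1 in SH3, beside 27.8% and 25.2%. Their medians were 0.06 and 0.18. ELAC2, which cuts tRNAs out of the polycistronic transcripts, was highest with 1.06 and 0.54, and TFAM, which packages mitochondrial DNA and is needed to start its transcription, was lowest with -0.82 and -0.35, all called. In footprints 3 were higher and 2 lower in SH2, and 1 and 2 in SH3, and TFAM was again lowest (-0.95 and -0.61, both called) and ELAC2 highest (1.07, called, and 0.25, not called, edgeR adjusted p 0.181).

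Among 15 mitochondrial translation factors, 5 were called higher and 0 lower in SH2 RNA, and 9 and 1 in SH3, with medians of 0.14 and 0.42. MTIF2, the mitochondrial initiation factor 2, was highest with 0.69 and 1.04 (both called), and MTRF1L, a release factor, was lowest with 0.0096 in SH2 (not called, edgeR adjusted p 0.942) and -0.30 in SH3 (called). In footprints 4 were higher and 0 lower in SH2, and 3 and 0 in SH3. GFM1, an elongation factor, was highest there with 1.09 and 0.66 (both called), and C12orf65 was lowest with -0.53 and -0.58 (neither called). The part of these nuclear genes in the levels of the 6 mRNAs was not tested.

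Over the 18 libraries, the nuclear genes whose profile lay nearest to the mean profile of the 6 were ZNF486, MSRB3, IL18, CD2AP and H2AZ1, out of 10322 nuclear genes. The measure was the root mean square difference of log2 CPM, centred within RNA and within footprints, and it was 0.37, 0.39, 0.40, 0.40 and 0.42. ZNF486 had only 8 to 71 footprint counts per library and MSRB3 16 to 162, so counting noise weighs on their places. The 6 themselves lay at 0.17 (MT-CYB) to 0.35 (MT-ATP8) from their mean. MT-ND5, at 0.15, lay nearer to that mean than any of the 6.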

How the data were processed

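Counts of input cytoplasmic RNA and of ribosome footprints of 18 libraries were read from 1 table of the whole series. Its count columns are raw, whole-number read counts per gene as deposited by the authors. Its normalized signal columns, per the file headers DESeq2-normalized, equal the deposited count divided by 1 factor per library. Its log2 fold changes and p-values are the authors' deposited comparisons. Bowtie 1.2.2 and DESeq2 are named in the submitters' processing notes. The counting tool, genome build, annotation and treatment of multiply matching reads are not given in the sources used here, so no coordinates are printed. The table's label holds the numbers 26 and 30, which read as footprint lengths but are not explained.

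Counts were tested with edgeR 4.0.16 in R 4.3.3 (filterByExpr, TMM factors, glmQLFit and glmQLFTest, two-sided, Benjamini-Hochberg over all genes tested), in 1 fit of the 9 IN libraries, 1 of the 9 RPF libraries, and 1 of all 18 for the RPF change minus the IN change. "Called" means an adjusted p under 0.05. CPM are TMM-scaled within a library kind and, like library shares, are not per length, so levels are not ranked between genes. Totals per library (given in the report) set the counting precision, and the SEs also hold replicate spread, whose common coefficient of variation in edgeR came to 11.6% for IN and 15.1% for RPF libraries. Replicates of a group all differed by more than counting noise (chi-square per degree of freedom 3.38 to 56.3), so each library was counted once. Same-numbered SC and SH2 libraries deviated together from their group means in every pair (correlations of 0.35, 0.29 and 0.29 in RNA and 0.28, 0.29 and 0.24 in footprints). The labels state no pairing and the correlations are low, so SC and SH2 are taken only as possibly paired by number. A replicate block kept all 6 called in RNA and in footprints of SH2 against SC. With that block all 6 SH2 changes were smaller in size, from -1.76 (MT-CO3) to -1.11 (MT-CO2) in RNA. In footprints they ran from -2.18 (MT-ATP6) to -1.01 (MT-ATP8, edgeR adjusted p 0.0291). The SH2 changes given gene by gene come from the fit without a block. On simulated counts, drawn with 1 spread for all genes and not the members' own, 98% of genes changed by 1 and 100% of those changed by 2 on the log2 scale were recovered in IN over 12675 genes and in RPF over 10248 genes (SH2 against SC). For the RPF change minus the IN change, 65% and 96% were recovered over 12452 genes, so changes of 1 were missed more often there. These shares do not give the recovery for the 6, whose SEs reached 0.43 in footprints and 0.53 in footprints relative to RNA. In footprints of SH3 against SC, a change of -1.08 (MT-CO3) was just past the threshold and 1 of -0.88 (MT-ATP8) was not called.

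The members and gene lists were chosen with earlier results of these data known. Of the lists, all symbols were found except 1 assembly factor and both mitochondrial rRNAs, which are not analysed here; 2 genes matched by an older symbol. The text names all 6 members; of each other list, the tested gene with the highest and the lowest mean of both hairpins' log2 changes; and the 5 nuclear genes nearest in profile. Alternatives were DESeq2 1.42.0, DESeq2 size factors, library totals, TMM without mitochondrial genes, no low-count filter, a threshold of 0.01, thinned footprint libraries, only the groups compared, replicate blocks, and leaving out each replicate.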

Additional observations from a re-analysis of the deposited data

How the results depend on the processing

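Of 810 gene values recomputed under the alternatives, 729 kept direction and side of the threshold, 45 lost a call, 11 gained one and 25 changed sign. No sign changed in the RNA comparisons, in footprints of SH2 against SC or in footprints between the hairpins. The number of the 6 called between SH2 and SH3 in RNA moved from 2 to 5 with only the groups compared, to 5 with a replicate block by number, and to between 1 and 2 when replicates were left out. In SH3 footprints against SC it moved from 2 to 0 with DESeq2, 0 at a threshold of 0.01, 1 with library totals, 0 with only the groups compared, and 0 to 4 when replicates were left out. In footprints between SH2 and SH3 it moved from 5 to 3 with DESeq2, 1 at 0.01, and 1 to 5 when replicates were left out. Over all genes, the replicate block by number called 5780 in place of 4993 between SH2 and SH3 in RNA. Signs turned with a replicate block by number for MT-CO2 footprints in SH3 (0.0207), and relative to RNA for MT-CO1 in SH2 (0.0124) and MT-ATP8 between hairpins (0.0211); with a block joining same-numbered RNA and footprint libraries, as if of 1 lysate, for MT-CO1 in SH2 (0.0339); and with library totals for MT-CO3 relative to RNA in SH3 (-0.0425). Replicates left out gave, for SH3 footprints, -0.69 to 0.29 (MT-CYB), -0.50 to 0.33 (MT-CO1) and -0.48 to 0.63 (MT-CO2). Relative to RNA they gave -0.35 to 0.13 (MT-CO1), -0.54 to 0.0742 (MT-CO2) and -0.94 to 0.15 (MT-CO3) in SH2, -0.32 to 0.76 (MT-CO3) and -0.14 to 0.56 (MT-ATP6) in SH3, and -0.26 to 0.10 (MT-ATP8) between hairpins. The cause was not tested. Same-numbered libraries of SH3 and another group correlated from -0.08 to 0.43 in RNA and from -0.11 to 0.30 in footprints. Since not every pair deviated together, the numbers are not taken to pair samples there. The replicate block left 2 and 5 of the 6 called in SH3 footprints against SC and between hairpins, and 0 relative to RNA. Counts over all genes ranged from 100 to 910 (489), 10 to 349 (86) and 0 to 219 (2) for footprints relative to RNA in SH2, SH3 and between hairpins, and between hairpins fell as low as 3152 in RNA (4993) and 1301 in footprints (2459), and to 2304 (3719) for SH3 footprints, the full values in parentheses. Footprint totals were lowest in SH3 (1662705 at the least). With footprint libraries thinned to 1 depth, the SH2 change of MT-ATP6, which had 126 to 179 counts there, was -2.31, and MT-ATP8 was called in SH3 footprints (-0.89, edgeR adjusted p 0.0495).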

Other observations

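In the authors' deposited table, the log2 fold changes of the measure named RD were identical for SH2 and SH3 in all 17017 genes. For the 6 members the authors' deposited table gives RD values of 0.79 (MT-CYB), 0.42 (MT-CO1), 0.60 (MT-CO2), 0.03 (MT-CO3), 0.18 (MT-ATP6) and 0.35 (MT-ATP8) under both hairpins. In the authors' deposited table, the median absolute difference between RD and the footprint change minus the RNA change was 0.297 for SH2 and 0.0255 for SH3, over 14348 genes. The RD values labelled SH2 were therefore not used here.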
